A study of Mus musculus with 12 samples.

Results

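Uncoupling protein 1 (Ucp1) and 6 further genes tied to heat production in brown and beige fat, Ucp2, Ucp3, Prdm16, Kcnk3, Fgf21 and Ckb, were followed by RNA sequencing in mature white adipocytes. The 7 genes were chosen by name and found by their symbols in a table of raw read counts for 20295 genes. The cells came from epididymal fat of lean C57/BL6J male mice, were isolated by floatation, and were kept in a hydrogel at 50000 cells per well for 2 days. All 4 groups share this history, and each holds 3 replicates. Cells received the solvent alone (DMSO), isoproterenol, an agonist of β-adrenergic receptors, for 3 h (ISO), a pair of compounds that block the lipases ATGL and HSL (Lip), or these compounds and isoproterenol (Lip+ISO). The compounds were Atglistatin, against ATGL, and CAY10499, against HSL, per the study. Its methods also name the lipase MGL as a target of CAY10499, and its legend has both compounds added before the stimulus. A legend of the study names the lipolysis activator SR-3420 for these cells, whereas the sample titles name ISO, which was followed here. The study speaks of independent experiments, but the labels do not say which mice or cultures gave each replicate, so the p-values measure the spread between these libraries.

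Brown and beige adipocytes burn fuel to make heat. UCP1 sits in the inner mitochondrial membrane and lets protons back into the matrix without making ATP. β-adrenergic receptors raise cAMP, which turns on protein kinase A, and the kinase both starts lipolysis and switches on genes through factors that bind cAMP response elements. Fatty acids from lipolysis are the fuel, activate the UCP1 protein, and serve as ligands of PPAR nuclear receptors. Epididymal fat of mice is known for low levels of Ucp1 and for few beige cells. The other 6 genes take different roles: PRDM16 is a transcriptional regulator that holds cells in the brown and beige fate, UCP2 and UCP3 are relatives of UCP1, CKB is a creatine kinase of the creatine cycle, KCNK3 is a two-pore potassium channel enriched in brown and beige cells, and FGF21 is a secreted hormone.

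The libraries held 22632220 to 43707557 counts, a 1.93-fold range, and scaling factors lay between 0.924 and 1.07. Levels are given as CPM, counts scaled to a total of 1000000 per library after trimmed mean (TMM) correction, and levels of different genes are compared only after division by counted exon length (CPM per kb). All 7 genes were among the 13543 genes with enough counts to be tested. The adipocyte label was checked against 10 defining genes, none of which was at 0, and which summed to 34903 to 51770 CPM across the 12 libraries. Marker genes of 5 other cell types were also read, and no listed marker was at 0 in every library. Lip replicate 3 stood apart in some of them, with 126 CPM of mesothelial markers against 15.2 to 86.1 in the other libraries and 288 CPM of skeletal muscle markers against 57.8 to 164.

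**Figure D1:**
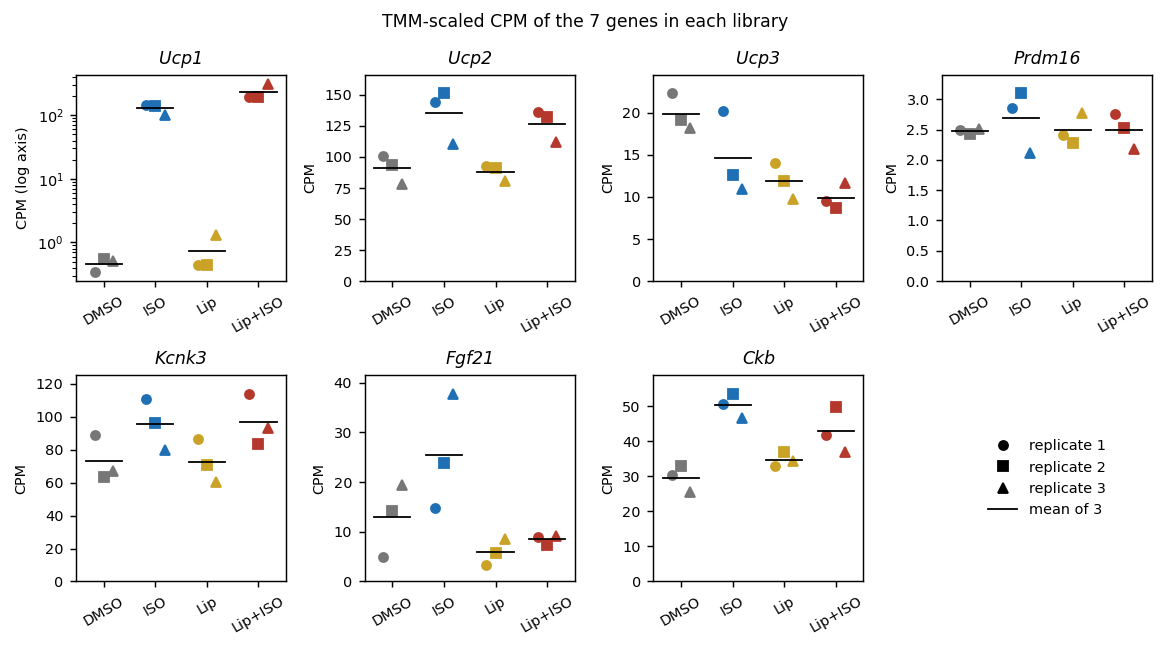
Level of each of the 7 genes in CPM (y axis; logarithmic for Ucp1, linear from 0 for the others) in the 4 groups (x axis), with one point per library, its shape giving the replicate, and a line at the mean of 3. Ucp1 stood between 0.347 and 1.33 CPM in the 6 libraries without ISO and between 100.3 and 309.9 CPM in the 6 with it, while the other 6 genes moved by far less.

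Ucp1 was close to silent without the agonist. The DMSO libraries had 0.347, 0.545 and 0.509 CPM, from 11, 13 and 13 counts. The ISO libraries had 142, 141 and 100.3 CPM. Every ISO library stood far above every DMSO library. The fitted log2 fold change was 8.11 ± 0.37 (SE, n = 3 per group), a 276-fold rise (edgeR quasi-likelihood test, adjusted p = 3.1e-08). It was the third largest of the 13543 genes tested.

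Inhibition of the lipases left this rise in place. The Lip libraries had 0.447, 0.451 and 1.33 CPM, from 13, 14 and 48 counts, and the Lip+ISO libraries had 192, 192 and 309.9 CPM. The 2 groups did not overlap, and replicate 3 was the highest library in both. Lip+ISO against Lip gave a log2 fold change of 8.22 ± 0.35 (SE, n = 3 per group; edgeR adjusted p = 5.2e-09), a 299-fold rise. The difference between the responses with and without inhibitors, the interaction, was 0.11 ± 0.64 on the log2 scale with a 95% confidence interval from -1.28 to 1.5 (adjusted p = 0.964). That interval holds both a response more than 1 log2 unit larger and one more than 1 unit smaller, so the responses cannot be called alike.

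Among stimulated cells, Ucp1 was higher with the inhibitors than without them. The mean was 231 ± 67.9 CPM (SD, n = 3) in Lip+ISO against 128 ± 23.7 in ISO, and all Lip+ISO libraries lay above all ISO libraries. The log2 fold change was 0.86 ± 0.23 (SE; edgeR adjusted p = 0.0355), a 1.81-fold difference. This call was close to the threshold. It was lost with the DESeq2 Wald test (0.87, adjusted p = 0.134), and in fits without Lip+ISO replicate 3 (0.60, adjusted p = 0.13), DMSO replicate 1 or 3, any one of the ISO replicates, or number 1 or 2 in every group, with an adjusted p from 0.0126 to 0.14 over 21 alternatives. Without the agonist, Lip against DMSO gave 0.74 ± 0.55 (adjusted p = 1.00), which was -0.04 without Lip replicate 3.

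Ucp2, whose product exchanges metabolites across the inner mitochondrial membrane and is found in many tissues, immune cells included, rose modestly with ISO. Its DMSO libraries had 101, 93.6 and 78.6 CPM and its ISO libraries 144, 151 and 110.4 CPM, with no overlap. This was a log2 fold change of 0.57 ± 0.13 (SE, n = 3 per group; edgeR adjusted p = 0.00592), or 1.49-fold. With the inhibitors the change was of similar fitted size, from 92.4, 91.0 and 80.3 CPM in Lip to 137, 132 and 112 CPM in Lip+ISO (0.53 ± 0.13, adjusted p = 0.00777). The interaction was -0.04 ± 0.18, with an interval from -0.44 to 0.35. The ISO rise was lost without number 2 (adjusted p = 0.101), and that with inhibitors without number 1 (0.0559) or number 2 (0.0882). Macrophage markers were higher in ISO than in DMSO too. The 12 genes of this list summed to 57.5 to 72.6 CPM in DMSO, 121 to 180 in ISO, 61.7 to 66.2 in Lip and 77.6 to 133 in Lip+ISO, and 8 of 11 tested were higher in ISO than in DMSO, against 12.3% of all tested genes. Ucp2 itself was at -0.09 ± 0.13 in Lip+ISO against ISO (edgeR adjusted p = 0.707). Within ISO, replicate 3 had the highest macrophage sum (180 CPM) and the lowest Ucp2 (110.4 CPM). In whole cultures, more cells of a type and more RNA per cell cannot be told apart. The part of macrophage RNA in the Ucp2 result was not tested.

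Ucp3, best known from skeletal muscle and brown fat, went the other way in fitted value. It had 22.3, 19.2 and 18.1 CPM in DMSO and 20.2, 12.6 and 10.9 CPM in ISO, and these groups overlapped through ISO replicate 1. The log2 fold change of -0.45 ± 0.21 did not pass (adjusted p = 0.137). With the replicate number as a block it was -0.47 and passed (adjusted p = 0.046), as it did without ISO replicate 1 (-0.75, adjusted p = 0.0113), within a range of 0.0113 to 0.43 over 21 alternatives. Lip libraries had 14.0, 11.9 and 9.72 CPM, all below every DMSO library, with a log2 fold change of -0.74 ± 0.21. Its unadjusted p was 0.00419, and the adjusted p was 0.591. Lip+ISO had 9.50, 8.64 and 11.6 CPM, which was -0.26 ± 0.22 against Lip (adjusted p = 0.431) and -0.55 ± 0.22 against ISO (adjusted p = 0.141). No Ucp3 comparison passed without the block or a left-out library. Skeletal muscle markers summed to 104 to 149 CPM in DMSO, 64.0 to 115 in ISO, 134 to 288 in Lip and 57.8 to 94.4 in Lip+ISO. Most of this sum was Acta1, while the myosin genes Myh1, Myh2, Myh4 and Myh7 had 18 to 44 counts each over all 12 libraries.

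Because the 3 uncoupling proteins share an origin, their messages were set side by side per length. In DMSO, Ucp2 made up 87.3% ± 0.655 of their summed CPM per kb (SD, n = 3), Ucp3 12.3% ± 0.643 and Ucp1 0.439% ± 0.132. In ISO, Ucp1 made up 45.7% ± 0.694 and Ucp2 50.8% ± 1.38. The Ucp1 share in ISO thus varied by less than 1 percentage point (SD) although the CPM of Ucp1 varied from 100.3 to 142. In Lip, Ucp1 made up 0.769% ± 0.590, and in Lip+ISO it was the leading message at 61.6% ± 8.34. Ucp3 made up 3.50% ± 0.853 in ISO and 1.80% ± 0.0714 in Lip+ISO. These shares were described and not tested.

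**Figure D2:**
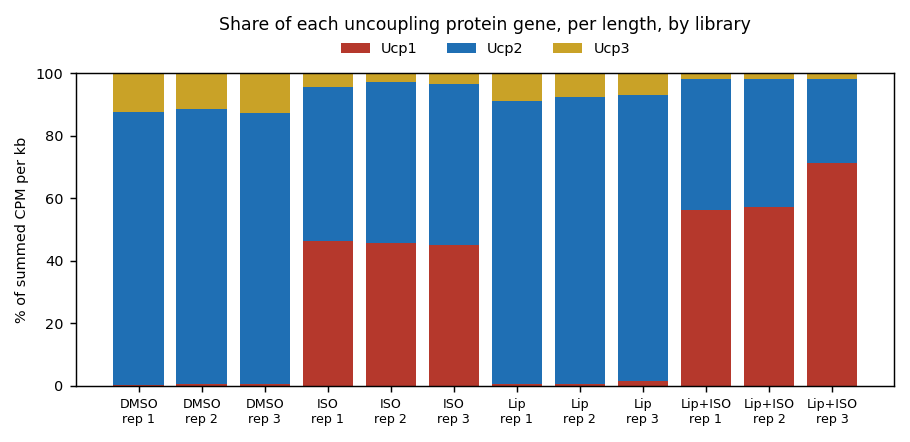
Share of Ucp1, Ucp2 and Ucp3 in their summed CPM per kb (y axis, percent, from 0 to 100) in each of the 12 libraries (x axis, replicates in order within each group). Ucp1 is barely visible in DMSO and Lip and takes 45.7% on average in ISO and 61.6% in Lip+ISO.

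The genes for Ucp3 and Ucp2 are neighbours, with 6925 bp between the end of Ucp3 (NM_009464, mm9 chromosome 7, 107621500 to 107634941, plus strand) and the start of Ucp2 (NM_011671, 107641867 to 107648138, plus strand). They nevertheless had fitted changes of opposite sign under ISO, of which only the rise of Ucp2 passed. Ucp1 (NM_009463) lies apart on chromosome 8, 85814247 to 85822355, plus strand. No annotated gene overlaps any of the 7.

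Ckb, the cytosolic brain-type creatine kinase, rose with ISO. Its libraries had 30.4, 32.9 and 25.6 CPM in DMSO and 50.8, 53.7 and 46.7 CPM in ISO, without overlap and with little spread. The log2 fold change was 0.77 ± 0.12 (SE, n = 3 per group), or 1.70-fold (edgeR adjusted p = 0.000549), and it passed in all 21 alternatives. With the inhibitors the fitted rise was smaller. Lip had 32.9, 36.9 and 34.4 CPM and Lip+ISO had 41.9, 49.9 and 36.9 CPM, and these groups overlapped, since Lip+ISO replicate 3 was as low as Lip replicate 2. This change of 0.30 ± 0.12 did not pass (adjusted p = 0.0805). It did with the replicate number as a block (0.29, adjusted p = 0.0108), with the range of 21 alternatives from 0.0108 to 0.341. The interaction of -0.46 ± 0.17 had an unadjusted p of 0.0174 and an adjusted p of 0.235, and did not pass in the fit without a block. With the block it was -0.48 and passed (edgeR adjusted p = 0.0259), within a range of 0.0259 to 0.688 over 20 alternatives. Lip+ISO against ISO gave -0.23 ± 0.12 (adjusted p = 0.258), and -0.24 with the block (adjusted p = 0.0495). Ckb (NM_021273) lies on chromosome 12, 112907566 to 112910549, minus strand.

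Kcnk3, the channel TASK-1, lay slightly higher with ISO in all 3 replicate numbers under both conditions. It had 88.9, 63.2 and 67.2 CPM in DMSO and 111, 96.2 and 79.7 CPM in ISO, and 86.8, 70.5 and 60.4 CPM in Lip and 114, 83.6 and 93.3 CPM in Lip+ISO. Within a number the ratio of ISO to DMSO was 1.25, 1.52 and 1.19, and that of Lip+ISO to Lip 1.32, 1.19 and 1.54. The groups overlapped in both comparisons, because replicate 1 was the highest in every group. The fitted changes were 0.39 ± 0.17 (adjusted p = 0.117) and 0.42 ± 0.17 (adjusted p = 0.0937), neither of which passed. With the replicate number as a block both passed, at 0.39 (adjusted p = 0.00315) and 0.42 (adjusted p = 0.00178), with adjusted p up to 0.451 and 0.312 over the alternatives. Kcnk3 (NM_010608) lies on chromosome 5, 30890543 to 30927643, plus strand.

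Fgf21 varied more between replicates than any other of the 7 genes when its DMSO and ISO libraries were read. It had 4.99, 14.1 and 19.5 CPM in DMSO and 14.8, 23.7 and 37.8 CPM in ISO. Each ISO library was above the DMSO library of its number, by 2.97, 1.68 and 1.94 times, yet the groups overlapped. The log2 fold change of 0.99 ± 0.44 did not pass (adjusted p = 0.118), but did with the replicate number as a block (1.03, adjusted p = 0.00888), with adjusted p up to 0.405 over the alternatives. With the inhibitors, levels were low, and those of Lip+ISO lay closer together. Lip had 3.4, 5.73 and 8.58 CPM and Lip+ISO had 8.85, 7.38 and 9.10 CPM, a change of 0.51 ± 0.46 (adjusted p = 0.473).

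Among stimulated cells, Fgf21 was lower with the inhibitors. All 3 Lip+ISO libraries lay below all 3 ISO libraries, with a log2 fold change of -1.59 ± 0.45 (SE, n = 3 per group; edgeR adjusted p = 0.0463). The 95% confidence interval ran from -2.57 to -0.61. The call was lost in 9 of 15 fits that left out libraries, namely without DMSO replicate 2, Lip replicate 2, ISO replicate 2 or 3, any one of the Lip+ISO replicates, or number 2 or 3 in every group. The value closest to 0 was -1.20, without ISO replicate 3 (adjusted p = 0.179), and the range of adjusted p over 21 alternatives was 0.00325 to 0.293. Lip against DMSO gave -1.11 ± 0.46, with an unadjusted p of 0.0306 and an adjusted p of 1.00. The interaction of Fgf21 was -0.48 ± 0.64 (edgeR adjusted p = 0.80), with an interval from -1.86 to 0.90. That interval holds both a smaller and a larger response to ISO with the inhibitors, so a lost response was not shown. Fgf21 (NM_020013) lies on chromosome 7, 52869260 to 52870860, minus strand.

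Prdm16 was low and did not pass in any comparison. Its libraries had 2.50, 2.43 and 2.51 CPM in DMSO, 2.86, 3.10 and 2.12 in ISO, 2.4, 2.29 and 2.77 in Lip and 2.75, 2.52 and 2.18 in Lip+ISO. All 4 groups overlapped. The ISO change was 0.13 ± 0.22 with an interval from -0.35 to 0.60 (adjusted p = 0.70), so a change of up to 0.60 log2 units upwards is within the error. Prdm16 (NM_001177995) lies on chromosome 4, 153690234 to 154010982, minus strand.

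Set together, the fit without a replicate block had 3 of the 7 genes (Ucp1, Ucp2 and Ckb) higher in ISO than in DMSO. Of all tested genes, 12.3% were. In that fit 0 were lower, where 13.9% of all were. No gene was lower at an unadjusted p under 0.05 or by DESeq2 (0 in each), while the replicate block gave 5 higher and 1 lower. In Lip+ISO against Lip, 2 were higher (Ucp1 and Ucp2), against 11.5% of all genes, and 0 were lower, against 15.8%, also at an unadjusted p under 0.05 and by DESeq2. The block and DESeq2 each gave 4 higher here. In Lip against DMSO, edgeR called 0 of the 7 in either direction, with 2 at an unadjusted p under 0.05 and 0 by DESeq2, against a background of 0.00738% higher and 0.0443% lower. There, 582 of 13543 genes had an unadjusted p under 0.05. In Lip+ISO against ISO, 1 was higher (Ucp1) and 1 lower (Fgf21), against 4.36% and 4.59% of all genes. With the block Ckb was lower there as well, where 1458 of 13543 genes were lower. For the interaction, 0 of the 7 passed with edgeR without the block and 0 with DESeq2, and 1 (Ckb) had an unadjusted p under 0.05. Of all genes, 0.901% and 0.724% passed higher and lower. The block gave 1 lower (Ckb), where 427 of 13543 genes were higher and 471 lower. Comparisons that share a group, such as ISO against DMSO and Lip+ISO against ISO, share its libraries and are not independent. The median log2 fold change over all tested genes lay between -0.0174 and 0.002, as TMM scaling sets it near 0, and a shift of all genes together could not be seen.

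**Figure D3:**
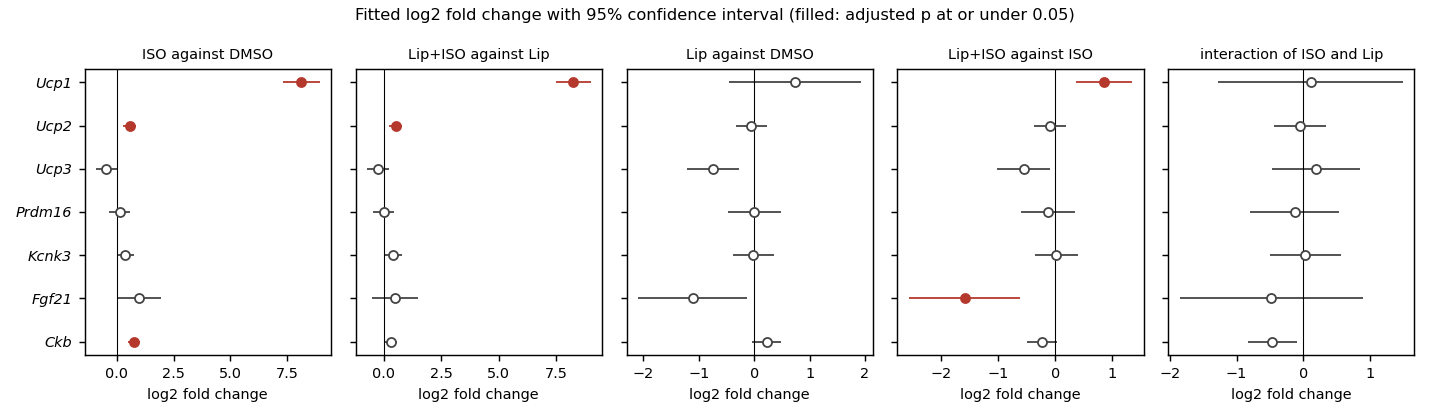
Fitted log2 fold change (x axis, one scale per panel) of the 7 genes (y axis) in the 5 comparisons, with 95% confidence intervals as lines and filled points where the adjusted p was at or under 0.05. Ucp1 stands at 8.11 and 8.22 in the 2 comparisons of ISO, and Fgf21 at -1.59 in Lip+ISO against ISO.

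Levels were then ranked within each group per length. In DMSO the order was Ucp2 (57.7 ± 7.16 CPM per kb, SD, n = 3), Kcnk3 (20.4 ± 3.87), Ckb (20.02 ± 2.51), Fgf21 (13.6 ± 7.75), Ucp3 (8.12 ± 0.886), Prdm16 (0.294 ± 0.00462) and Ucp1 (0.284 ± 0.0641). From Kcnk3 to Ucp3 each gene overlapped the next, and so did Prdm16 and Ucp1 at the bottom. In ISO, Ucp1 came second at 77.7 ± 14.4 CPM per kb, overlapping Ucp2 at 85.9 ± 13.9. In Lip the order was much as in DMSO, with Ucp2 at 55.8 ± 4.20 and Ucp1 at 0.451 ± 0.309, which overlapped Prdm16 at 0.295 ± 0.0298. In Lip+ISO, Ucp1 was first at 140.8 ± 41.3 CPM per kb, with no overlap with Ucp2 at 80.5 ± 8.13. Ckb and Kcnk3 followed at 29.0 ± 4.43 and 27.1 ± 4.35 and overlapped each other, then Fgf21 at 8.91 ± 0.983, Ucp3 at 4.05 ± 0.622 and Prdm16 at 0.295 ± 0.0337. By group means, Ucp1 thus stood last in DMSO, second in ISO and first in Lip+ISO.

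The 3 tested genes nearest to a member's pattern were found by the root mean square difference of log2 CPM, each taken relative to its DMSO mean, over the 12 libraries. For Ucp1 these were Nr4a3 (0.905 log2 units), Ppp1r3g (0.914) and Tnfaip6 (1.31). Nr4a3, an immediate early nuclear receptor, went from 7.72 ± 2.43 CPM in DMSO to 808 ± 150.1 in ISO and from 15.3 ± 8.38 in Lip to 1408 ± 209 in Lip+ISO. For Ucp2 they were Cnbp (0.125), Cd63 (0.128) and Hnrnpc (0.131), and for Ckb they were Rpl22l1 (0.124), Tgfb1 (0.138) and Tbc1d1 (0.146). For Fgf21 they were Slc4a8 (0.47), Zfp366 (0.502) and Pirb (0.523), all with group means under 2 CPM. The distance for Ucp1 and Fgf21 is several times that for Ucp2 and Ckb. This distance grows with the size of a gene's changes and the spread of its replicates. It therefore does not tell which member was followed more closely.

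Promoter sequences are shown for the 4 genes that passed at least 1 comparison, as the stretch on which cAMP-responsive factors could act near the start. RefSeq promoters (GRCm38.p6, 250 bases before to 50 after the start) were found for 6 of the 7 genes, all but Kcnk3. Capitals mark matches to TGACG, read as CGTCA on the other strand, which is the core of a cAMP response element, and to TGATGNAA, read as TTNCATCA on the other strand, the core of sites shared by ATF4 and C/EBP factors. The whole element TGACGTCA, which contains TGACG on both strands, was searched too.
Ucp1 (chr8:83290098-83290397, plus strand): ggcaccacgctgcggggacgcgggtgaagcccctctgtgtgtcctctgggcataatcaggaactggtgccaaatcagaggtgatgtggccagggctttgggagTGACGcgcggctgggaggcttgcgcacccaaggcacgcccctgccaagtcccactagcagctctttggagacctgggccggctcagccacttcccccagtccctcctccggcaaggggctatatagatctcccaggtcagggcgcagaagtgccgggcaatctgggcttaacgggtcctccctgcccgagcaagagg
Ucp2 (chr7:100493108-100493407, plus strand): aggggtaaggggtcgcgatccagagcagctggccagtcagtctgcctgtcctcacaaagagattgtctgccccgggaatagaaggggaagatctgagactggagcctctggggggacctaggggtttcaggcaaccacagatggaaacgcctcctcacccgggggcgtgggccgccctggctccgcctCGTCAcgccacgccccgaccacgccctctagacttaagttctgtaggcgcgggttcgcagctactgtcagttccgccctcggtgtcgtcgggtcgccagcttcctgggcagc
Fgf21 (chr7:45615441-45615740, minus strand): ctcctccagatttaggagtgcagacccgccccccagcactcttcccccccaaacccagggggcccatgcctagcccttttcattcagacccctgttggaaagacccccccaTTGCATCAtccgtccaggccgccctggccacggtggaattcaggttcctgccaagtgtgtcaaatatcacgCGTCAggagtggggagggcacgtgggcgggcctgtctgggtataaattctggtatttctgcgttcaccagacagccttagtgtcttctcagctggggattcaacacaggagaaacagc
Ckb (chr12:111672289-111672588, minus strand): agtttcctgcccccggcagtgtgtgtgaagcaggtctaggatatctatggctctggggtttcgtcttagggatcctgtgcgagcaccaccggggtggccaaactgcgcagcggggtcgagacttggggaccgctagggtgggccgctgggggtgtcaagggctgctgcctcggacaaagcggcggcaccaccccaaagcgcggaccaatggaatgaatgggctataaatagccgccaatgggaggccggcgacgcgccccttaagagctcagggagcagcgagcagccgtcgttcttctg
The Ucp1 window holds TGACG 147 bases before the start. The Ucp2 window holds CGTCA 62 bases before the start, and the Fgf21 window holds CGTCA 68 bases and TTGCATCA 139 bases before it. The Ckb window holds none of these letters, nor does that of Prdm16, and that of Ucp3 holds CGTCA 28 bases after the start. TGACG occurs in 20.8% of 32851 promoters of this length, TGATGNAA in 3.97% and TGACGTCA in 1.79%, and the last was in none of the 6 windows. The strongly induced Ucp1 and the modestly induced Ucp2 thus each hold one common short match, and these are descriptions of letters and not of binding.

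The list of regulators of the brown and beige fate, to which Prdm16 belongs by role, was read next. Of 19 tested genes in it, 6 were higher and 3 lower in ISO than in DMSO, where 12.3% and 13.9% of all tested genes were, so the share that fell was near that of all genes. The list had a median log2 fold change of 0.17 against 0.0018 over all genes. Ppargc1a, the coactivator of mitochondrial biogenesis, went from 7.86 ± 1.84 to 108 ± 27.7 CPM (3.79 ± 0.20, edgeR adjusted p = 7.8e-08) and, with the inhibitors, from 7.95 ± 0.394 to 131 ± 12.9 CPM. Irf4, a partner of this coactivator in thermogenic gene expression, rose from 11.7 ± 2.92 to 52.8 ± 18.4 CPM (2.17 ± 0.35). Ebf2, which marks and maintains brown and beige cells, fell from 45.0 ± 5.44 to 25.97 ± 4.68 CPM (-0.79 ± 0.14), and from 37.3 ± 3.16 to 17.3 ± 1.80 CPM with the inhibitors. Pparg, the nuclear receptor that drives adipocyte differentiation, fell from 338 ± 16.5 to 246 ± 19.4 CPM (-0.46 ± 0.08). With the inhibitors the change of Pparg did not pass, as it went from 330.03 ± 7.00 to 360.4 ± 30.3 CPM (0.13 ± 0.08, adjusted p = 0.31), and its interaction passed (0.58 ± 0.12, adjusted p = 0.0274). This interaction was lost in 11 of 15 fits that left out libraries. With the inhibitors 5 genes of the list were higher and 3 lower, against 11.5% and 15.8% of all genes, and in Lip+ISO against ISO 2 were higher and 4 lower, against 4.36% and 4.59%.

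Of 18 tested thermogenic effectors, 3 were higher and 2 lower in ISO than in DMSO, near the 12.3% and 13.9% of all genes. In Lip+ISO against Lip 3 were higher and 2 lower, also near the 11.5% and 15.8% of all genes, so these counts are no result about the list. Dio2, the deiodinase that makes active thyroid hormone inside brown fat, rose from 0.546 ± 0.116 to 9.47 ± 2.04 CPM (4.08 ± 0.24, edgeR adjusted p = 2.2e-07). With the inhibitors it rose from 0.748 ± 0.215 to 72.3 ± 10.8 CPM, and the interaction of 2.52 ± 0.37 passed (adjusted p = 0.00392), except without number 2 in every group (adjusted p = 0.114). Cidea, a lipid droplet protein of brown and beige cells, rose from 1.84 ± 0.713 to 4.37 ± 1.52 CPM (1.23 ± 0.32). The call of Cidea was lost without ISO replicate 1 (0.93), number 2 (1.04) or number 3 (1.41), with adjusted p up to 0.104. The receptor genes fell, Adrb3 from 183 ± 46.1 to 28.8 ± 7.27 CPM (-2.67 ± 0.23) and Adrb1 from 12.1 ± 0.859 to 4.50 ± 0.869 CPM (-1.43 ± 0.18). Ucp1, Dio2 and Cidea rose while the messages of these β-adrenergic receptors fell.

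**Figure D4:**
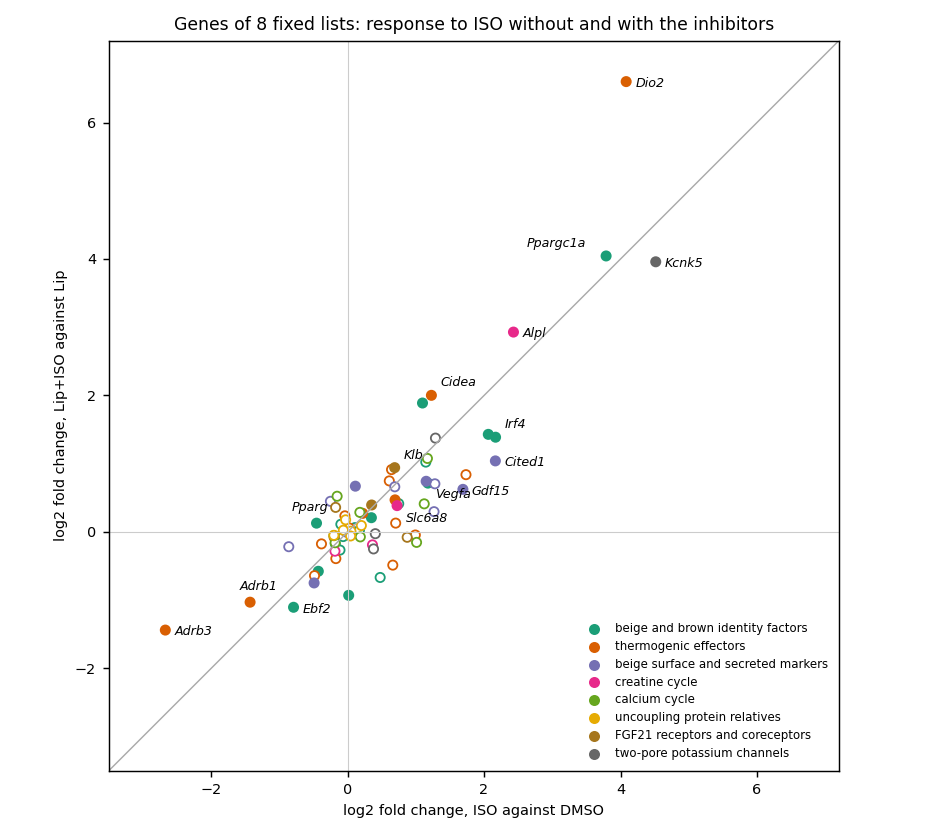
Log2 fold change of the tested genes in the 8 lists, ISO against DMSO (x axis) and Lip+ISO against Lip (y axis), with the line of equal response; filled points passed in at least 1 of these comparisons and colours give the list. Dio2 lies above the line, at 4.08 and 6.60, and Adrb3 and Adrb1 lie at the lower left.

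The remaining lists follow the other members. Among 11 beige surface and secreted markers, 3 were higher and 0 lower in ISO, against 12.3% and 13.9% of all genes (1 lower at an unadjusted p under 0.05, 0 by DESeq2). These were Cited1, which went from 0.398 ± 0.172 to 1.80 ± 0.931 CPM, Gdf15, from 176 ± 34.6 to 567 ± 59.1, and Vegfa, from 171 ± 4.89 to 379.9 ± 55.7. The call of Cited1 was lost without DMSO replicate 1 or 3 or without number 1 or 3 in every group, with adjusted p up to 0.161 and log2 fold changes from 1.65 to 2.94 over 15 such fits. In the creatine cycle, to which Ckb belongs, 2 of 4 tested genes were higher, against the same 12.3%. These were the phosphatase Alpl, from 19.0 ± 1.47 to 102 ± 4.61 CPM (2.43 ± 0.12, edgeR adjusted p = 7.5e-08), and the creatine transporter Slc6a8, from 86.5 ± 14.7 to 143 ± 18.1 (0.72 ± 0.19). The call of Slc6a8 was lost without DMSO replicate 1 or 3, ISO replicate 2, or number 2 or 3 in every group, with adjusted p up to 0.0656, which would leave 1 of 4. Alpl rose with the inhibitors too, from 22.0 ± 2.76 to 167 ± 25.6 CPM, and was higher in Lip+ISO than in ISO (0.71 ± 0.12, adjusted p = 0.0021). Among 4 tested receptors and coreceptors of FGF21, Klb, the obligate coreceptor, was higher in ISO, at 131 ± 14.2 against 81.5 ± 8.91 CPM (0.69 ± 0.20). The call of Klb was lost without DMSO replicate 1 or 2, ISO replicate 1 or 3, or number 2 in every group, with adjusted p up to 0.142. Of 4 tested two-pore potassium channels other than Kcnk3, Kcnk5 was higher, at 22.1 ± 2.24 against 0.983 ± 0.446 CPM (4.52 ± 0.35), which was a far larger response than that of Kcnk3.

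No gene of the calcium cycle or of the mitochondrial carrier relatives of the uncoupling proteins passed in ISO against DMSO. Of 8 tested calcium cycle genes, edgeR called 0 in either direction in ISO against DMSO, with 0 at an unadjusted p under 0.05 and 0 by DESeq2. Of 6 tested carrier relatives, 0 passed, 1 was higher at an unadjusted p under 0.05, and 0 were called by DESeq2. With 12.3% of all genes higher and 13.9% lower, lists of this size would hold few calls in any case. Their median log2 fold changes were 0.18 and 0.0057, against 0.0018 over all tested genes. In Lip against DMSO, edgeR called 0 of the 74 tested genes in all 8 lists. Of all tested genes, 0.00738% were called higher and 0.0443% lower, so few calls could arise. At an unadjusted p under 0.05 there were 6 of the 74, all lower, against 582 of all 13543 genes. DESeq2 called 1 of the 74.

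The cell type markers bear on how these levels are read. Besides macrophage markers, those of endothelial cells summed to 160 to 298 CPM in DMSO and 359 to 637 in ISO, and those of fibroblasts and progenitors to 465 to 809 in DMSO and 930 to 1241 in ISO. Of the latter 10 genes, 5 were higher in ISO than in DMSO, against 12.3% of all genes. Of them, 4 fell in Lip+ISO against ISO, where 4.59% of all genes did. Among the 10 endothelial markers, only 1 passed as higher in ISO against DMSO, near the 12.3% of all genes. Their median log2 fold change was 0.94, and 5 had an unadjusted edgeR p under 0.05, so the higher endothelial sum rests mostly on genes that did not pass. In Lip+ISO against ISO, 1 of 11 macrophage and 1 of 10 endothelial markers were lower. Fgf21 was likewise lower in Lip+ISO than in ISO, and Ckb higher in ISO than in DMSO. Adipocyte markers summed to 41419 to 51770 CPM in DMSO and 37370 to 49368 in ISO, so those groups overlapped. The part of other cell types in the changes of Ucp1, Ckb, Kcnk3 and Fgf21 was not tested.

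**Figure D5:**
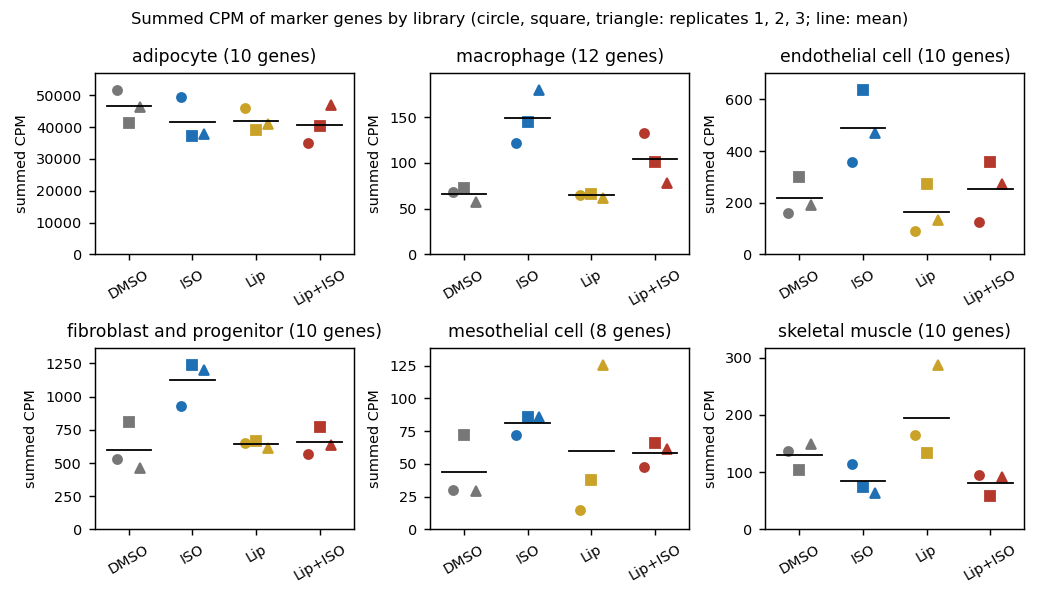
Summed CPM of the marker genes of 6 cell types (y axis, linear from 0) in the 4 groups (x axis), with one point per library and a line at the mean of 3. The macrophage sum was 121 to 180 CPM in ISO against 57.5 to 72.6 in DMSO, and adipocyte markers outweighed the others in every library.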

How the data were processed

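RNA sequencing counts of 12 cultures in 4 groups of 3 were analyzed. The 7 genes, the gene lists and the tests were chosen with earlier results of these data known. Per the labels and the study's methods, the authors aligned TruSeq reads to mm9 with STAR 2.4.2a and counted reads per RefSeq gene with HOMER, set to 1 read per position and read length, and iRNA-seq. The deposited values are raw counts, without normalization, and the limit per position can lower the counts of abundant genes. Whether counting used strand is not given in the sources used here. The exon lengths of the deposited table were used for CPM per kb.

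Groups came from the sample titles. In R 4.3.3, edgeR 4.0.16 was used with filterByExpr (minimum count 10), TMM scaling and a quasi-likelihood fit in which each group had its own mean and replicates had no term, over all 12 libraries together. Tests were two-sided, with Benjamini-Hochberg adjustment over 13543 genes, and genes with an adjusted p of 0.05 or less passed. Within every group, replicates differed by more than sampling noise (chi-square per degree of freedom from 16.5 to 79.5). The fit was tested on simulated data. Alternatives were RLE scaling, library totals, no filter, DESeq2 1.42.0, a replicate block, only the compared groups, a minimum log2 fold change of 1, and leaving out libraries. Deviations from group means of same-numbered libraries were correlated. In ISO against DMSO, Lip+ISO against Lip and Lip against DMSO the lowest of 3 correlations was 0.14, 0.192 and 0.197. The numbers were read there as a hint of pairs, since the labels do not say what a number marks. The main fit left them out, so its calls there ignore any pairing. Where the replicate block changed the call of a member, this is stated. In Lip+ISO against ISO the correlations were 0.0373, 0.103 and 0.311. The same libraries enter every comparison, and all 12 correlated best with their own number. Pairs therefore cannot be set aside in Lip+ISO against ISO or in the interaction, and the main calls ignore them there too.

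Genes were named by a rule, which covers the 7 genes, of each list the 2 highest and 2 lowest that passed in ISO against DMSO and any that passed the interaction, and the 3 nearest patterns of each member that passed. Further marker genes named were chosen after their values were seen. Protein sequences were not used here. Overlapping or near-identical copies were checked for the 7 genes only by annotated position.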

Additional observations from a re-analysis of the deposited data

Results flagged for a closer look

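No sample of the 7 genes was examined by an outlier test, since every group has 3 libraries. Among the genes of the fixed lists, 2 differed in their response to ISO between cells with and without inhibitors by the edgeR interaction test. Dio2 had an interaction of 2.52 on the log2 scale (SE 0.37, adjusted p = 0.00392), with 9.47 ± 2.04 CPM in ISO and 72.3 ± 10.8 CPM in Lip+ISO (SD, n = 3). It was higher in all 3 Lip+ISO libraries than in any ISO library, and its call was lost without number 2 in every group (2.42, adjusted p = 0.114). Pparg had an interaction of 0.58 (SE 0.12, adjusted p = 0.0274), with 246 ± 19.4 CPM in ISO and 360.4 ± 30.3 CPM in Lip+ISO. This call was lost in 11 of 15 fits that left out libraries, with adjusted p up to 0.33. No member passed this test without the replicate block, and Ckb passed with it (-0.48, edgeR adjusted p = 0.0259).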

How the results depend on the processing

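Over the alternatives, the rise of Ucp1 with ISO (7.83 to 8.33), its rise in Lip+ISO against Lip (7.96 to 9.00) and the rise of Ckb with ISO (0.67 to 0.84) passed in 21 of 21. With the replicate number as a block, 5 members were higher and 1 lower in ISO against DMSO, 4 were higher in Lip+ISO against Lip, 2 were lower in Lip+ISO against ISO (Fgf21, and Ckb at -0.24, adjusted p = 0.0495) and 1 was lower in the interaction (Ckb, -0.48, adjusted p = 0.0259). Over all genes the block gave 2552 higher and 2660 lower in ISO against DMSO (1670 and 1878 without it), 1149 and 1458 in Lip+ISO against ISO (590 and 621), and 427 and 471 in the interaction (122 and 98), and all 12 libraries correlated best with their own number. DESeq2 gave 0 members higher in Lip+ISO against ISO and 4 in Lip+ISO against Lip, where Kcnk3 (0.45, adjusted p = 0.049) and Ckb (0.33, adjusted p = 0.0402) passed. RLE scaling also let Ckb pass there (0.34, adjusted p = 0.0492). With a minimum log2 fold change of 1, ISO against DMSO and Lip+ISO against Lip each kept 1 member (Ucp1), and Lip+ISO against ISO had 0 higher, as this threshold asks for a larger change. Leaving out libraries gave 0 to 1 members higher and 0 to 1 lower in Lip+ISO against ISO, 1 to 3 higher in Lip+ISO against Lip and 0 to 1 lower in ISO against DMSO.

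Signs turned only in changes that did not pass. With library totals Kcnk3 was at 0.0222 in Lip against DMSO, -0.0121 in Lip+ISO against ISO and -0.0343 in the interaction. Prdm16 was at -0.0001 in Lip against DMSO without the filter, and in Lip+ISO against Lip at 0.03 with RLE scaling, 0.025 with DESeq2 and 0.0034 with only the compared groups. Without single libraries or numbers, Kcnk3 ranged from -0.17 to 0.15 in Lip against DMSO, -0.11 to 0.14 in Lip+ISO against ISO and -0.13 to 0.21 in the interaction. Prdm16 ranged from -0.0102 to 0.28 in ISO against DMSO, -0.0868 to 0.0621 in Lip against DMSO and -0.0883 to 0.17 in Lip+ISO against Lip, Ucp1 from -0.0365 to 1.12 in Lip against DMSO and -0.14 to 0.89 in the interaction, Ucp2 from -0.15 to 0.0297 and -0.17 to 0.0573 in the same comparisons, and Ucp3 from -0.17 to 0.58 in the interaction. The cause of these changes was not tested. Counts of 11 to 48 for Ucp1 in the libraries without ISO limit the precision of its fold change.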
